A study of Mus musculus with 6 samples.

Results

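The phagocyte NADPH oxidase genes Cybb, Cyba, Ncf1, Ncf4, Rac1, Rac2 and Rap1a were read on arrays of common myeloid progenitors (CMP) sorted by their content of reactive oxygen species (ROS). The members are the probe sets whose platform annotation gives exactly 1 gene symbol, that of 1 of these 7 genes, which was the case for 15 of 45037 probe sets, and the members are 7 of the 18193 genes read. The comparison was between groups of 3 arrays: high-ROS CMP and low-ROS CMP, both from bone marrow of C57BL6 mice that carried no genetic change or treatment named in the labels. The stain was H2-DCFDA, which fluoresces once it has been oxidised inside the cell, and each sorted fraction held 15 to 20% of all CMP. The study concerns the role of ROS in the step toward megakaryocyte and erythrocyte progenitors, and the values given here show how CMP rich and poor in ROS compare in RNA of the enzyme that makes superoxide. The labels do not name the sort gate for CMP or say whether the 3 arrays of a group came from separate mice, so the spread behind each p-value may be that of sample handling alone. Arrays of both groups carried the progenitor genes Kit and Cd34, and also strong signals of late neutrophil, eosinophil and erythroid genes that CMP are not known for, so the label is kept here as the name of the sort.

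The phagocyte NADPH oxidase moves electrons from NADPH inside the cell across a membrane onto oxygen, which yields superoxide and, from it, hydrogen peroxide. Its membrane core, flavocytochrome b558, is a pair of Cybb (NOX2, gp91phox), the subunit that carries the electrons, and Cyba (p22phox), which stabilises Cybb and gives the cytosolic subunits a docking site. In resting cells the core is idle. On activation the organiser Ncf1 (p47phox) and the regulator Ncf4 (p40phox) move from the cytosol to the membrane together with a GTP-loaded Rac protein, and the small GTPase Rap1a, which copurifies with the cytochrome, is a further partner. Much of this control acts on proteins that are already present, through phosphorylation and GTP loading, which arrays do not read.

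No oxidase subunit passed the test between high-ROS and low-ROS CMP. At 3 probe sets, of Cybb and Rac1, the groups did not overlap, with high-ROS CMP lower, against 5.95% of all probe sets. At an adjusted p under 0.05 in limma (Benjamini-Hochberg over all probe sets), 0 of the 15 probe sets passed, where 0.0222% of all 45037 did (1 higher and 9 lower in high-ROS CMP). The smallest adjusted p of a member was 0.707. Of the 15 probe sets 1, of Cybb, had an unadjusted p under 0.05 in limma, with high-ROS CMP lower. Among all 45037 probe sets, 1610 (3.57%) were lower and 1526 were higher in high-ROS CMP at this level. For all 15 probe sets the 95% confidence interval of the difference lay within a 2-fold change in either direction, and for 13 of them within 1.5-fold, against 92.8% and 52.4% of all probe sets. Of the 15, 14 had a mean signal over the median of all probe sets, so these shares do not compare probe sets of like signal. With 3 arrays a group, a difference that lies inside the 95% interval of a probe set is not excluded.

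Most differences had the same direction, and they were small. The mean log2 signal was lower in high-ROS CMP for 13 probe sets and higher for 2, and the median of the 15 log2 fold changes was -0.098. The 13 include Rac1 1437674_at, which was too dim to carry a usable level, and Cyba at -0.014. Of all probe sets 49.7% were lower, with a median of 0.0018. Probe sets of 1 gene share a target, and by the brightest probe set of each gene 6 of 7 genes were lower. Bright probe sets as a whole leaned the same way: of the 8666 with a mean signal of at least 300, 55% were lower in high-ROS CMP, against 12 of the 14 members this bright. The lowest trimmed mean signal, 180 against 188 to 197 on the other arrays, was that of high-ROS replicate 3. When it was left out, 10 of these 14 members were lower, against 45.9% of the bright probe sets. The groups did not overlap, with high-ROS CMP lower, at 3 member probe sets, against 5.95% of all and 8.64% of the bright ones, and at 0 with high-ROS CMP higher, against 6.72% of all.

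**Figure D1:**
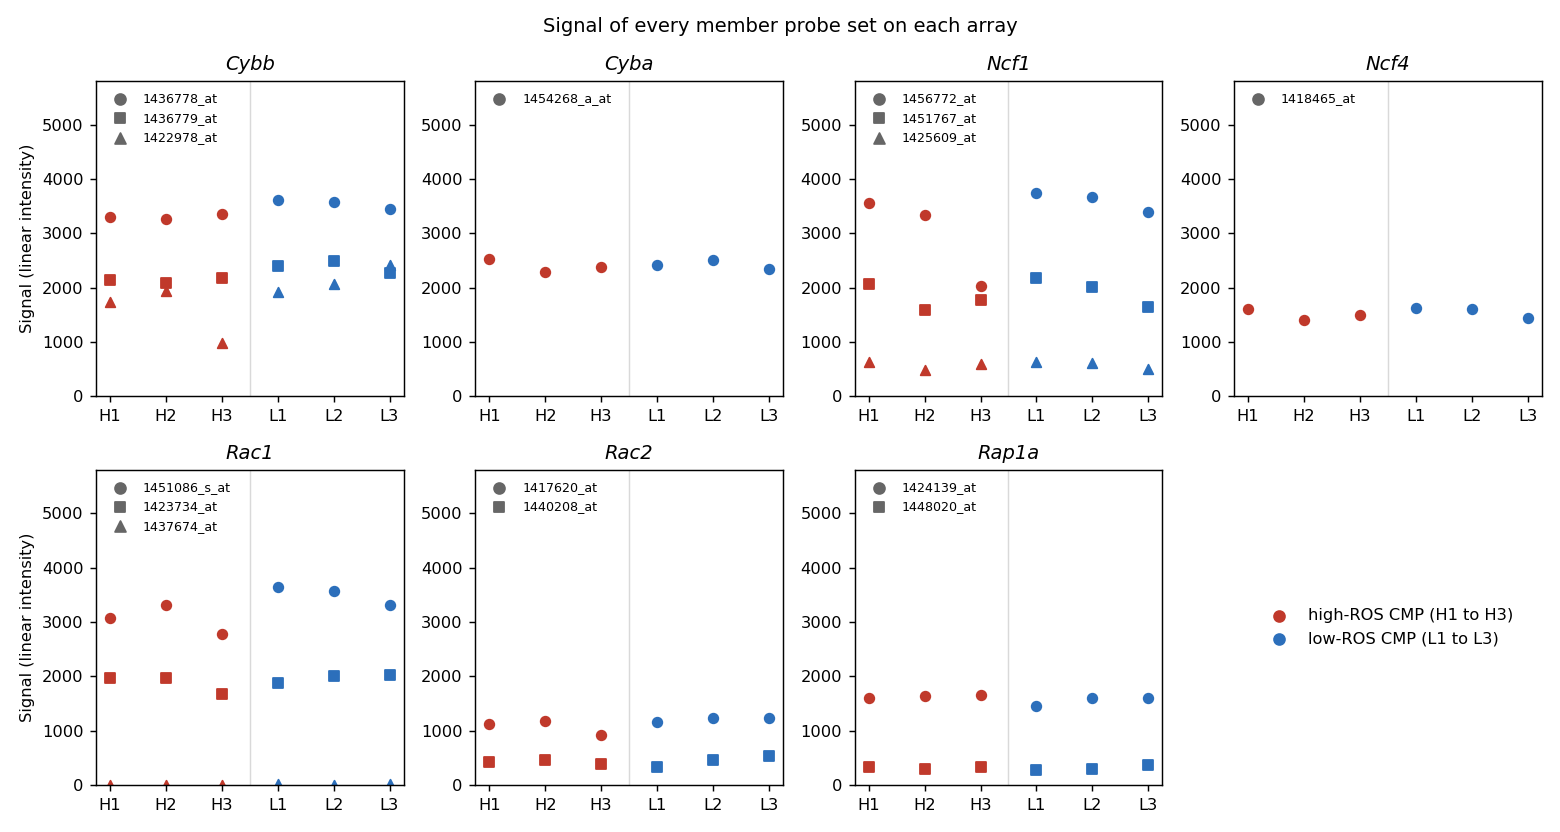
Deposited signal (linear intensity) of each of the 15 member probe sets on the 3 high-ROS arrays (red, H1 to H3) and the 3 low-ROS arrays (blue, L1 to L3), 1 panel per gene and 1 marker shape per probe set. The points of a probe set lie close together in both groups, except that 1 probe set each of Cybb and Ncf1 is well below its other values on high-ROS replicate 3.

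**Figure D2:**
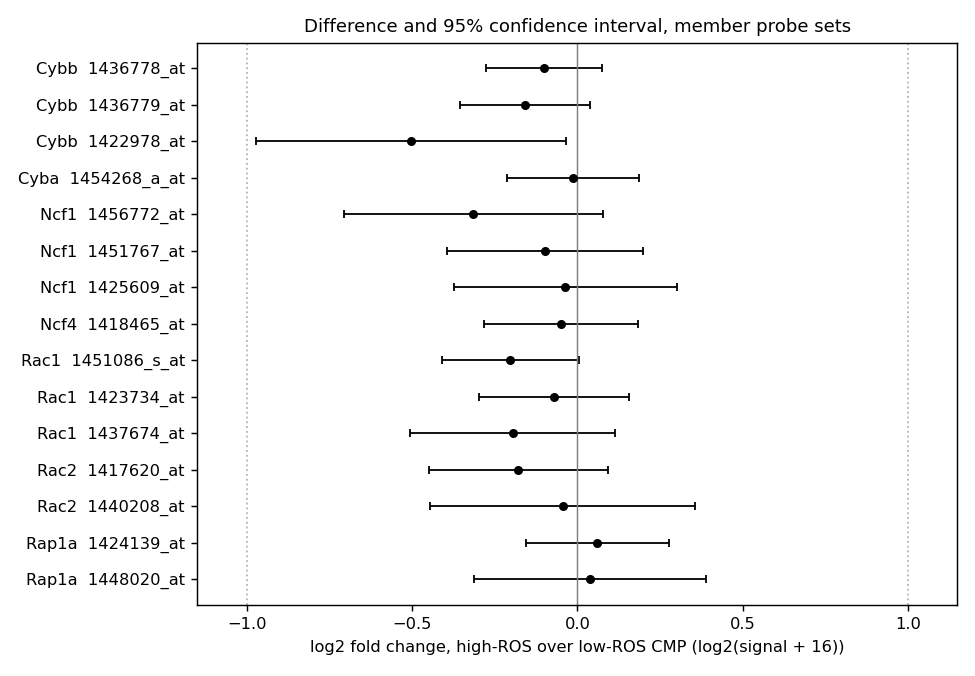
Difference between high-ROS and low-ROS CMP for each member probe set, as log2 fold change on the scale log2(signal + 16) with its 95% confidence interval from limma (3 arrays a group). All intervals lie between the dotted lines that mark a 2-fold change, and 14 of 15 include 0.

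Cybb, the electron-carrying subunit, was read by 3 probe sets, and they did not give the same size of difference. The brightest, 1436778_at, had signals of 3307, 3261 and 3346 in high-ROS replicates 1 to 3, against 3617, 3579.9 and 3451 in low-ROS replicates 1 to 3. Every high-ROS array was below every low-ROS array, although the gap was small. The log2 fold change was -0.10 (SE 0.0794, adjusted p = 0.810), a fold of 0.932 with a 95% interval of 0.825 to 1.05.

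The Cybb probe set 1436779_at had 2143, 2089 and 2167 in high-ROS CMP, against 2392, 2486 and 2275 in low-ROS CMP. Here too the groups did not overlap, and the difference was -0.16 on the log2 scale (SE 0.0896, limma adjusted p = 0.752). The third, 1422978_at, had 1728, 1945 and 985 in high-ROS CMP, against 1924, 2061 and 2409.9 in low-ROS CMP. On this probe set 1 array stood apart: high-ROS replicate 3 was at 57.0% of the next lowest array, while high-ROS replicates 1 and 2 were near the low-ROS values and the groups overlapped. Its log2 fold change of -0.50 (SE 0.212, unadjusted p = 0.0373, adjusted p = 0.707) was the largest of any member. It was -0.21 (SE 0.111, adjusted p = 0.944) without high-ROS replicate 3. The other 2 probe sets of Cybb gave -0.11 and -0.17 without that array.

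Cyba, the partner without which the cytochrome is unstable, had 1 probe set, 1454268_a_at. Its signals were 2521, 2291 and 2381 in high-ROS CMP, against 2419, 2508 and 2335 in low-ROS CMP. The groups overlapped, and the means of 2398 ± 116 in high-ROS CMP and 2420.3 ± 86.4 in low-ROS CMP (SD, n = 3 each) differed by less than either SD. The fold was 0.990 with a 95% interval of 0.863 to 1.14 (log2 fold change -0.014, SE 0.0901, limma adjusted p = 0.982), and its sign changed in 5 of 16 alternative settings.

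Ncf1, the organiser that docks on Cyba once it is phosphorylated, was read by 3 probe sets. The brightest, 1456772_at, had 3559, 3342 and 2022 in high-ROS CMP, against 3739, 3662 and 3397 in low-ROS CMP. As for Cybb, high-ROS replicate 3 stood alone, at 60.5% of the next lowest array. The log2 fold change was -0.32 (SE 0.177, adjusted p = 0.751), and -0.060 (SE 0.0746, adjusted p = 0.979) without that array.

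The other probe sets of Ncf1 did not show this drop. 1451767_at had 2070.1, 1592 and 1775 in high-ROS CMP, against 2179.8, 2017 and 1635 in low-ROS CMP (log2 fold change -0.098, SE 0.135, adjusted p = 0.906). 1425609_at had 626, 478 and 594 in high-ROS CMP, against 637, 605 and 499.9 in low-ROS CMP (log2 fold change -0.038, SE 0.153, adjusted p = 0.972). On both, the groups overlapped and the 6 arrays stood in the same order, with low-ROS replicate 1 highest and high-ROS replicate 2 lowest.

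Ncf4, a regulatory subunit whose PX domain binds a phosphoinositide of the phagosome membrane, had 1 probe set, 1418465_at. It showed 1599, 1405 and 1502 in high-ROS CMP, against 1619, 1611 and 1439 in low-ROS CMP. The groups overlapped, with means of 1502 ± 96.7 and 1557 ± 102 (SD, n = 3 each) in high-ROS and low-ROS CMP. The log2 fold change was -0.051 (SE 0.105, adjusted p = 0.942), with a 95% interval of the fold of 0.821 to 1.13.

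The drops of Cybb 1422978_at and Ncf1 1456772_at had counterparts in other genes on that array. Among 2901 probe sets with a mean signal of at least 1000, 145 (5.0%) were lowest on high-ROS replicate 3 and under 66.7% of the next lowest array there. On low-ROS replicate 1 the number was 2, and on each of the other 4 arrays it was 0. The Gapdh control probe sets give a 3′ to 5′ ratio that rises when RNA is degraded or copied incompletely. It was 3.57, 2.997 and 4.53 in high-ROS replicates 1 to 3, against 3.19, 2.84 and 2.54 in low-ROS replicates 1 to 3. The same ratio of the Actb control probe sets was 1.03, 1.05 and 1.06 in high-ROS CMP, against 0.976, 1.02 and 1.05 in low-ROS CMP, and did not set high-ROS replicate 3 apart. With the log2 of the Gapdh ratio in the fit, the log2 fold change was 0.034 (SE 0.133) for Cybb 1422978_at and -0.00017 (SE 0.187) for Ncf1 1456772_at. In the same fit the brighter Cybb probe sets were at -0.14 and -0.20, and the dimmer Ncf1 probe sets at -0.26 and -0.25, none of them past the threshold. The Gapdh ratio is itself higher on average in high-ROS CMP, so this fit removes part of any difference between the groups, and the part that RNA integrity plays in it was not tested.

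**Figure D3:**
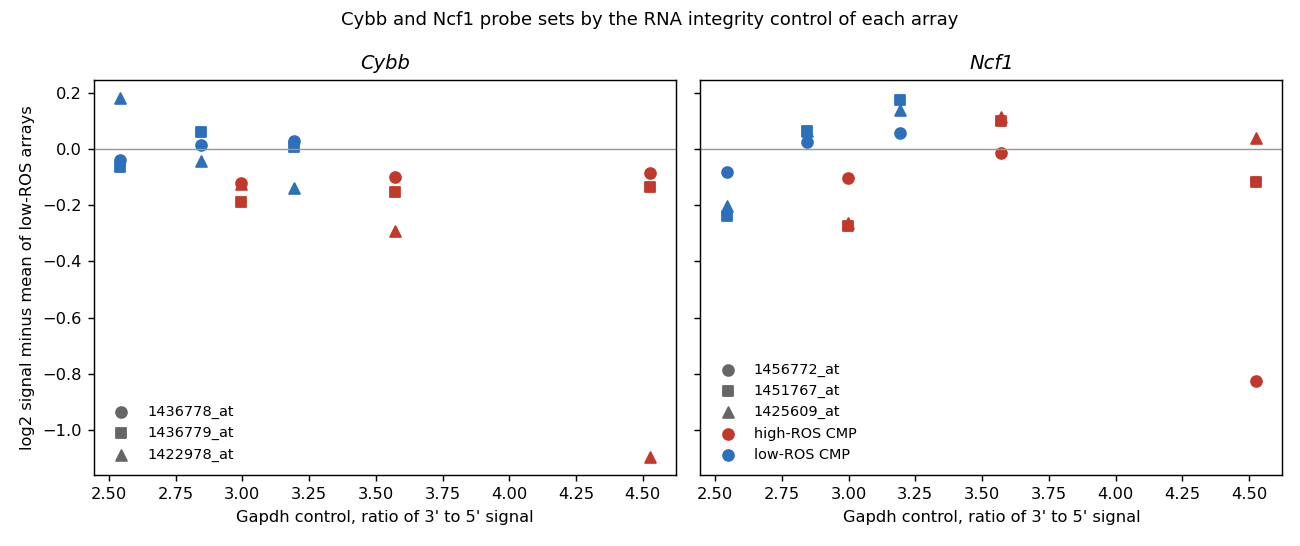
Log2 signal of the Cybb (left) and Ncf1 (right) probe sets on each array, as the difference from the mean of the low-ROS arrays, against the ratio of 3′ to 5′ Gapdh control signal on that array. High-ROS replicate 3, with a ratio of 4.53, holds the 2 points that stand far below the others, 1 for each gene, while the other probe sets of the same genes stay near their usual level there.

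The Rac proteins switch the assembled oxidase on when they are loaded with GTP. Rac2 is largely restricted to blood cells, and Rac1 is found in most tissues and also drives actin remodelling. Of the 3 probe sets of Rac1, the brightest, 1451086_s_at, had 3068, 3305 and 2771 in high-ROS CMP, against 3634, 3567 and 3309 in low-ROS CMP. All high-ROS arrays were below all low-ROS arrays, though high-ROS replicate 2 and low-ROS replicate 3 nearly met. The log2 fold change was -0.20 (SE 0.0942, unadjusted p = 0.0553, adjusted p = 0.718), and -0.14 without high-ROS replicate 3. The suffix of its name marks a probe set that can match more than 1 transcript, and the Rac genes are close copies of each other.

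The second Rac1 probe set, 1423734_at, had 1971, 1967 and 1680.3 in high-ROS CMP, against 1877, 1996 and 2018 in low-ROS CMP. These overlapped. The difference was -0.071 on the log2 scale (SE 0.103, limma adjusted p = 0.911) and 0.0043 without high-ROS replicate 3. The third, 1437674_at, lay between 4.45 and 5.91 in high-ROS CMP and between 4.39 and 10.5 in low-ROS CMP. These signals are far below the array medians of 40.3 to 42.4 and carry no usable level.

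For Rac2, the probe set 1417620_at had 1118, 1178 and 915 in high-ROS CMP, against 1155, 1239.6 and 1227 in low-ROS CMP. High-ROS replicate 3 was again the lowest array, and the groups overlapped through high-ROS replicate 2. The log2 fold change was -0.18 (SE 0.123, adjusted p = 0.785), and -0.072 (SE 0.0960, adjusted p = 0.981) without that array. The dimmer probe set 1440208_at had 414, 461 and 384 in high-ROS CMP, against 331, 452 and 537 in low-ROS CMP, so that the low-ROS arrays spanned all high-ROS values (log2 fold change -0.045, SE 0.182, adjusted p = 0.972).

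Rap1a, a Ras-like GTPase that also controls integrin adhesion, was the only member with a higher mean in high-ROS CMP. Its brighter probe set, 1424139_at, had 1593, 1631 and 1646 in high-ROS CMP, against 1457, 1607 and 1608 in low-ROS CMP. Low-ROS replicate 1 was the lowest of the 6 arrays, and the groups overlapped. The log2 fold change was 0.061 (SE 0.0983, adjusted p = 0.922), and 0.014 without that array. The probe set 1448020_at lay between 297 and 334 in high-ROS CMP and between 274 and 365 in low-ROS CMP (log2 fold change 0.038, SE 0.159, adjusted p = 0.973), and without low-ROS replicate 1 it was at -0.050.

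**Figure D4:**
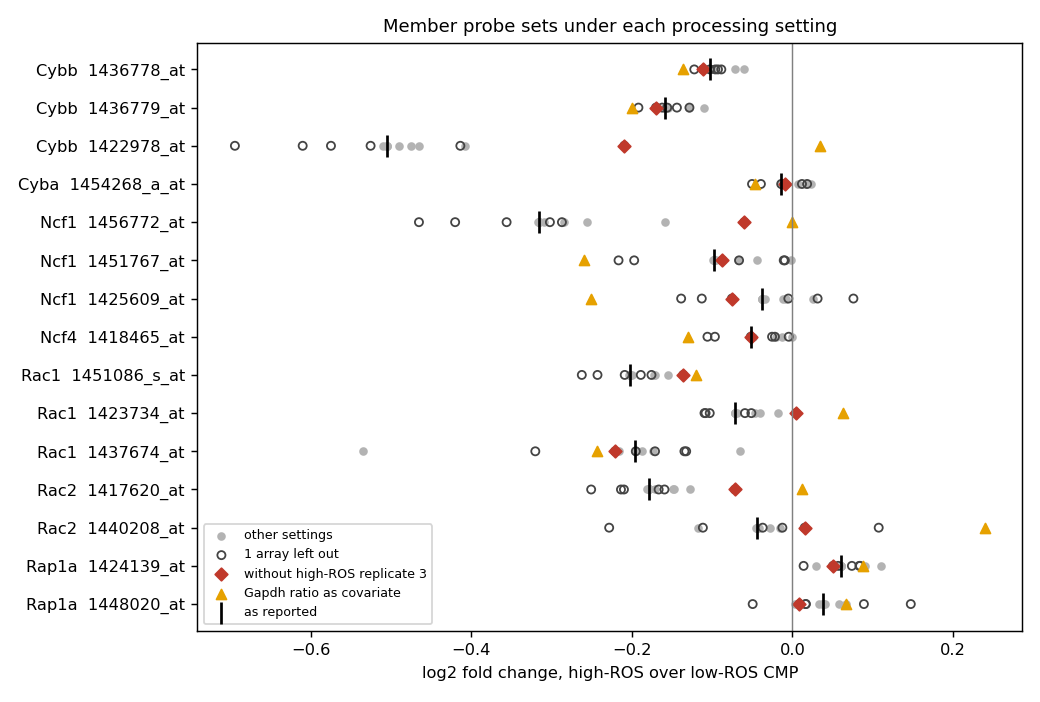
Log2 fold change of each member probe set as reported (black bar) and under every alternative setting, where red diamonds leave out high-ROS replicate 3 and yellow triangles adjust for the Gapdh ratio. Cybb 1422978_at ranges widest, between -0.69 and 0.034, and the 2 brighter Cybb probe sets stay between -0.20 and -0.061.

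Other genes around the oxidase were read on the brightest probe set of each gene, and 0 of 38 passed the threshold over all probe sets. Of the other oxidases and their partners, 6 of 11 were measured, 3 higher and 3 lower in high-ROS CMP. The median of their differences was 0.022 on the log2 scale, near the 0.019 over all genes. Cybc1, the chaperone that the Cybb and Cyba pair needs to mature, was the only one of them brighter than the median of all probe sets. It had 447, 407 and 361 in high-ROS CMP, against 296, 389.99 and 342 in low-ROS CMP, which overlapped (log2 fold change 0.24, SE 0.158, adjusted p = 0.781). Nox4, an oxidase that works without cytosolic subunits, lay between 5.96 and 13.4 in high-ROS CMP and between 12.4 and 15.7 in low-ROS CMP. Duoxa1, a maturation factor of the dual oxidases, lay between 5.50 and 14.7 in high-ROS CMP and between 5.70 and 7.02 in low-ROS CMP, so neither gene was read above background.

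Genes that load, unload or hold the Rac and Rap switches gave 6 higher and 7 lower of 13 measured, with a median of -0.11 and 0 past the threshold. Without high-ROS replicate 3, 6 were lower and the median was 0.018. Arhgdib, which keeps Rac in the cytosol of blood cells, had 6317, 6810.2 and 4916 in high-ROS CMP, against 6669, 7206 and 7148 in low-ROS CMP (log2 fold change -0.23, SE 0.112, adjusted p = 0.723). Its lowest array was also high-ROS replicate 3, and without it the difference was -0.094. Vav1, an exchange factor that loads Rac with GTP in blood cells, had 678, 559 and 778 in high-ROS CMP, against 586, 585 and 462 in low-ROS CMP (log2 fold change 0.29, SE 0.159, adjusted p = 0.745), and 0.18 without high-ROS replicate 3 or without low-ROS replicate 3. Rap1b, the closest relative of Rap1a, had 5172, 4946 and 4994 in high-ROS CMP, against 5885, 5362 and 5389 in low-ROS CMP. Its groups did not overlap, and the difference was -0.14 on the log2 scale (SE 0.0763, limma adjusted p = 0.749), while the sign for Rap1a was positive. Its dimmer probe sets were at -0.33 and -0.045.

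Kinases and lipid signals that activate the oxidase gave 3 higher and 8 lower of 11 measured, with a median of -0.16 and 0 past the threshold. Without high-ROS replicate 3, 7 were lower and the median was -0.034. Akt1, a kinase that can phosphorylate Ncf1, had 298, 262 and 312 in high-ROS CMP, against 178, 212 and 216 in low-ROS CMP. The groups did not overlap (log2 fold change 0.49, SE 0.162, adjusted p = 0.690), but its 3 other probe sets, all dimmer, had log2 fold changes of -0.33, -0.23 and -0.19. Pak2, a kinase activated by Rac, had 1913, 2009 and 1363 in high-ROS CMP, against 2348, 1906 and 1896 in low-ROS CMP (log2 fold change -0.23, SE 0.152, adjusted p = 0.780). Without high-ROS replicate 3 it was at -0.057, and its next brightest probe set, 1434250_at, was at 0.045. Prkcd, the protein kinase C isoform that phosphorylates Ncf1, had 988, 1009 and 799.8 in high-ROS CMP, against 1115, 1128 and 956 in low-ROS CMP (log2 fold change -0.19, SE 0.131, adjusted p = 0.783), and was at -0.089 without that array.

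Transcription factors that act on oxidase genes gave 3 higher and 5 lower of 8 measured, with a median of -0.092 and 0 past the threshold. Irf8, which drives monocyte development and can activate Cybb, had 1215, 1086 and 775 in high-ROS CMP, against 582, 737 and 574 in low-ROS CMP. All high-ROS arrays were above all low-ROS arrays (log2 fold change 0.67, SE 0.176, limma unadjusted p = 0.00295, adjusted p = 0.597), but on its other probe set, 1416714_at, the groups overlapped and the log2 fold change was 0.25 (SE 0.231). Without high-ROS replicate 3 the Irf8 probe sets were at 0.86 and, for 1416714_at, 0.56. Without high-ROS replicate 2, 1416714_at was at 0.060. Cux1, a repressor of Cybb in immature myeloid cells, had 912, 981 and 783 in high-ROS CMP, against 1035, 1088 and 1041 in low-ROS CMP (log2 fold change -0.24, SE 0.121, adjusted p = 0.726), and was at -0.15 without high-ROS replicate 3. Its next brightest probe set, 1451435_at, was at -0.10 with overlap of the groups. The dimmer ones ranged between -0.51 (1437431_at) and 0.36 (1425611_a_at, far below the array medians). Hoxa10, which also holds back Cybb in immature cells, was dim, between 8.04 and 13.1 in high-ROS CMP and between 19.8 and 84.9 in low-ROS CMP (log2 fold change -1.02, SE 0.335, adjusted p = 0.689). Low-ROS replicate 1 was its only array above the array medians, and without it the difference was -0.58. Spi1 (PU.1), the ETS factor that activates Cybb and Ncf1, was chosen after its values were seen. It had 483, 417 and 515 in high-ROS CMP, against 466, 447 and 509 in low-ROS CMP (log2 fold change -0.011, SE 0.140, adjusted p = 0.992).

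**Figure D5:**
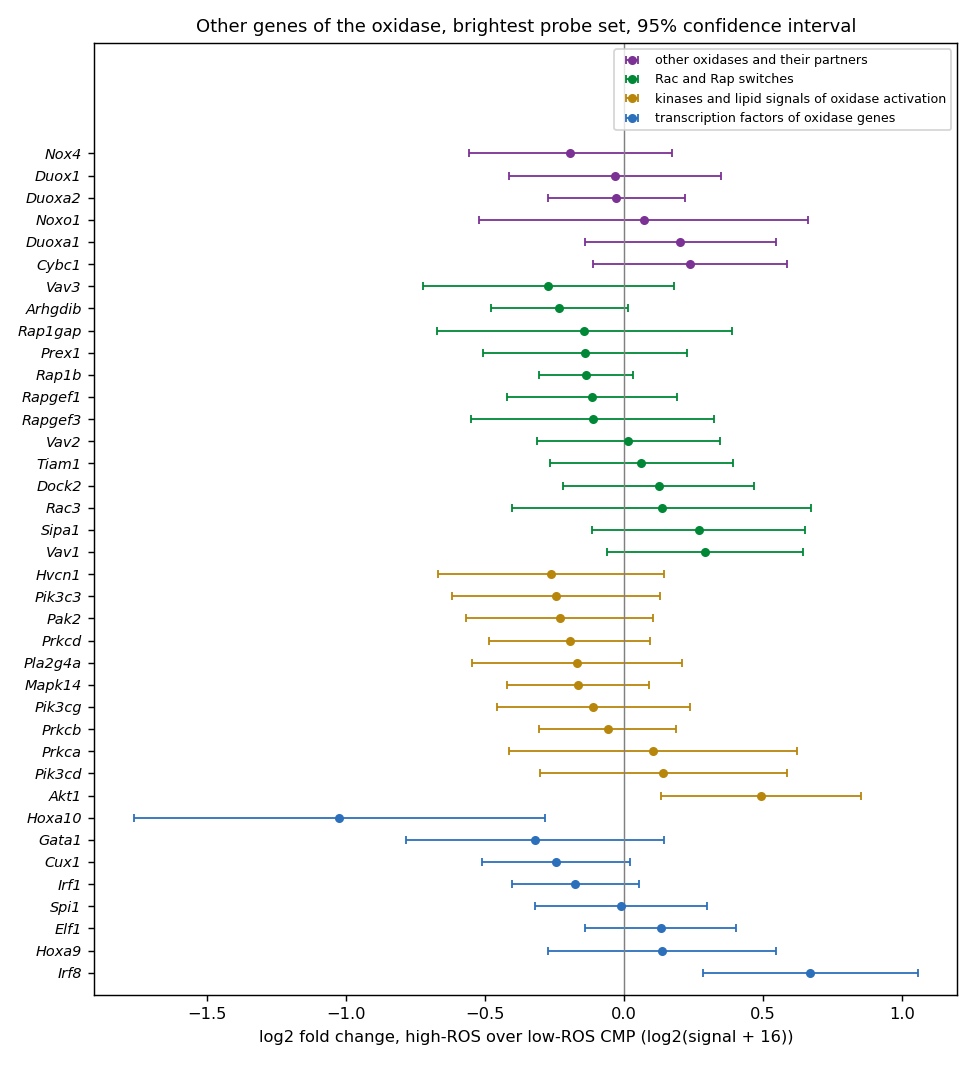
Log2 fold change between high-ROS and low-ROS CMP with its 95% confidence interval (limma, 3 arrays a group) for the 38 measured genes of the 4 lists around the oxidase, on the brightest probe set of each gene. Irf8 and Akt1 lie to the right of 0 and Hoxa10 to the left with intervals that do not include it, and none of the 38 passed the threshold over all probe sets.

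The start region of Cybb is shown because it carries the letters that PU.1 is known to bind. The core GAGGAA was searched on both strands in RefSeq windows from 250 bases before to 50 bases after each annotated start (build GRCm38.p6). It was found in 28.3% of all 32851 windows. Of the members, 3 had a window, and the motif was in that of Cybb, once, and not in those of Cyba and Ncf1. In Cybb it reads as TTCCTC, its reverse complement, on the strand of the gene, with its first base at position 10 after the annotated start. The 30 bases around it, at chrX:9469298-9469327 on the minus strand, are given 5′ to 3′ with the motif in capitals.
Cybb: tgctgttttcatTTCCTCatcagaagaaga
A match of these letters is a description of the sequence and shows no binding.

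By their values over the 6 arrays, the genes most like Cybb (1436778_at) were Ccnl2, a cyclin linked to splicing, Nipbl, a loader of cohesin, and Mcemp1, a membrane protein of myeloid cells. The root mean square difference of their centred log2 signals from those of Cybb was 0.0121, 0.0229 and 0.0250, among 8065 genes compared. Mcemp1, for example, had 3035, 3064 and 3012 in high-ROS CMP, against 3293, 3389 and 3173 in low-ROS CMP. All 3 had, like Cybb, small differences with no overlap of the groups, and they were chosen for that likeness, so it is no test.

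The markers of other cells matter here because mature phagocytes carry far more oxidase than progenitors do. Genes listed here for CMP, whose sort gate the labels do not name, were present. Kit lay between 523 and 559 in high-ROS CMP and between 561 and 749 in low-ROS CMP. Cd34 lay between 341 and 801 in high-ROS CMP and between 360.0 and 497 in low-ROS CMP. Mpo, an early granule enzyme, lay between 6694 and 7494 in high-ROS CMP and between 6543 and 7078 in low-ROS CMP. All 8 measured markers of mature neutrophils were above the median of all probe sets on average. S100a8 lay between 12421 and 12871 in high-ROS CMP and between 12273 and 13258 in low-ROS CMP. S100a9 lay between 12725 and 13145 in high-ROS CMP and between 12595 and 13131 in low-ROS CMP. Ltf, a late granule protein named after its values were seen, lay between 5193 and 5717 in high-ROS CMP and between 5759 and 6183 in low-ROS CMP.

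The neutrophil markers had lower means in high-ROS CMP at 8 of 8, and 0 passed. Their median difference was -0.097 on the log2 scale, beside -0.102 for the brightest probe set of each oxidase member. Their summed signal lay between 50247 and 52907 in high-ROS CMP and between 50755 and 55382 in low-ROS CMP, and without high-ROS replicate 3 all 8 were still lower, with a median of -0.057. Monocyte and macrophage markers gave 3 higher and 3 lower of 6 measured, with summed signals between 9362 and 10336 in high-ROS CMP and between 9782 and 9977 in low-ROS CMP. Among them Csf1r had 1713, 1787 and 1479.9 in high-ROS CMP, against 1372, 1209.9 and 977 in low-ROS CMP (log2 fold change 0.49, SE 0.139, limma adjusted p = 0.632), and Lyz2 was at -0.10. The dimmer Csf1r probe sets were at 0.50 (1419873_s_at, no overlap of the groups) and 0.39 (1423593_a_at, with overlap). Adgre1 lay between 109 and 111 in high-ROS CMP and between 98.1 and 125 in low-ROS CMP. Eosinophil, basophil and mast cell markers gave 4 lower of 5 measured, with summed signals between 10638 and 13044 in high-ROS CMP and between 12353 and 13899 in low-ROS CMP, led by Prg2 and Epx with log2 fold changes of -0.11 and -0.12. The median of this list was -0.11, which became -0.018 when high-ROS replicate 3 was left out. Prg2 was then at -0.028 and Epx at 0.0084. In RNA of sorted cells, fewer cells of a type and less RNA per cell cannot be told apart, and the part of these cells in the oxidase signals was not tested.

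Markers of lineages with less of this oxidase were mixed. Of the erythroid markers 3 of 4 measured were lower, with Slc4a1 at -0.30 (SE 0.0911) and Alas2 at -0.06 (SE 0.101). The summed signals of this list lay between 6663 and 7849 in high-ROS CMP, below the 8489 to 8506 in low-ROS CMP. Only for Slc4a1 did the groups not overlap, with 4350 to 5366 in high-ROS CMP and 6066 to 6161 in low-ROS CMP. Hba-a1, named after its values were seen, was higher but far below the array medians. It lay between 1 and 8.43 in high-ROS CMP and between 1 and 3.49 in low-ROS CMP. The 932 probe sets annotated to several genes were not read for any list, so this dim value may not be the full level of Hba-a1 RNA. Platelet and megakaryocyte markers gave 3 lower of 6, with Pf4 at -0.73 (SE 0.143, limma adjusted p = 0.262) and Gp9 at -0.19 (SE 0.278, and 0.11 without high-ROS replicate 3), and summed signals between 741 and 992 in high-ROS CMP, below the 1323 to 1333 in low-ROS CMP. Without Pf4 these sums overlapped, between 164 and 240.2 in high-ROS CMP and between 198 and 263 in low-ROS CMP. Itga2b and Ppbp, named after their values were seen, were at -0.74 (SE 0.232, limma adjusted p = 0.685, no overlap) and 0.34 (SE 0.273). B cell markers gave 3 lower of 5, with summed signals between 1392 and 1878 in high-ROS CMP and between 1511 and 2044 in low-ROS CMP, led by Cd79b (-0.11) and Ebf1 (-0.07). T and NK cell markers gave 2 lower of 5, with summed signals between 1205 and 1358 in high-ROS CMP and between 1182 and 1301 in low-ROS CMP, led by Nkg7 (-0.06) and Cd3g (0.14). None of the markers passed the threshold. Of the genes listed for CMP (Kit, Cd34, Mpo, Fcgr3 and Fcgr2b), 2 of 5 were lower, and Fcgr3 was at 0.023 on the log2 scale (SE 0.0936). Kit, the receptor of stem cell factor, was at -0.22 (SE 0.141, limma adjusted p = 0.774), with no overlap of the groups, and its dimmer probe set 1415900_a_at was at -0.82 (SE 0.275, limma adjusted p = 0.690), also with no overlap. Cd34 was at 0.40 (SE 0.262, limma adjusted p = 0.778), and at 0.73 without high-ROS replicate 3 and 0.14 without high-ROS replicate 2.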

How the data were processed

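RNA of sorted CMP was amplified and biotin-labelled with the NuGEN Ovation system and read on one-colour arrays, per the labels' protocols. The authors deposited a linear intensity for each probe set on each array. The summary of probes and the scaling of arrays are not stated in the labels. Of 45101 probe sets, 64 controls were left out. Names came from a table of the platform annotation, in which 34945 probe sets had 1 gene symbol, and 34741 of these matched the RefSeq gene table by Entrez identifier.

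Intensities plus a pseudocount of 16 were taken to log2 without further normalization. High-ROS and low-ROS CMP, 3 arrays each, were compared over all 45037 probe sets with limma 3.58.1 in R 4.3.3 (lmFit, eBayes with trend, 2-sided, Benjamini-Hochberg, threshold 0.05), with 10.7 total degrees of freedom. Fold changes on this scale are understated for dim probe sets. An exact permutation test of 3 against 3 cannot go below p = 0.1, so none is given. The brightest probe set stood for genes of lists. The fit was checked on simulated data.

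Members and lists were chosen with earlier results of these data known. Named were all member probe sets, the 3 list genes with the smallest p around the oxidase, the 2 brightest markers of each cell type, and the 3 genes most like Cybb, with a mean signal of at least 100 and at least 0.8 times the SD of Cybb. Some genes of the lists were not analysed here. Alternatives were no trend, only brighter probe sets, quantile and trimmed mean scaling (2% of each tail), other pseudocounts, a replicate block, weighted arrays, the Gapdh ratio as a covariate, 1 probe set per gene and leaving out each array. The number of arrays limits the precision. Plots used matplotlib 3.10.9 under Python 3.11.15.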

Additional observations from a re-analysis of the deposited data

How the results depend on the processing

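In all 16 alternative settings 0 member probe sets and 0 list genes passed the threshold, and the number of member probe sets with a lower mean stayed between 9 (Gapdh ratio as a covariate) and 13, apart from 6 of 7 with 1 probe set per gene. Their median log2 fold change was -0.044 with quantile normalization, -0.047 with the Gapdh covariate and between -0.13 and -0.067 when 1 array was left out. Over all probe sets, the counts past the threshold (1 higher, 9 lower) were 0 and 0 without a mean-variance trend (limma; 1592 and 1478 at an unadjusted p under 0.05), 10 and 23 with array weights and 0 and 5 with the replicate block. Higher calls were 2 with only brighter probe sets, with quantile and with trimmed mean scaling, 3 with 1 probe set per gene, and 0 with a pseudocount of 64, with the Gapdh covariate and without any 1 array. Lower calls without 1 array ranged between 3 and 8 (8 without high-ROS replicate 3). Of single probe sets, Cyba changed sign with quantile normalization (0.023), trimmed mean scaling (0.016) and array weights (0.0072), and ranged between -0.050 and 0.018 when 1 array was left out. With the Gapdh covariate Cybb 1422978_at was at 0.034, Rac1 1423734_at at 0.063, Rac2 1417620_at at 0.012 and Rac2 1440208_at at 0.24. Ncf1 1425609_at was at 0.026 with array weights. When 1 array was left out, Ncf1 1425609_at ranged between -0.14 and 0.076, Rac1 1423734_at between -0.11 and 0.0043, Rac2 1440208_at between -0.23 and 0.11 and Rap1a 1448020_at between -0.050 and 0.15. The causes were not tested. Rac1 1437674_at gave no value among the brighter probe sets.

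Deviations from the group mean on arrays of the same replicate number had correlations of 0.138, 0.102 and -0.0189 (across probe sets). For arrays of unlike number the correlations lay between -0.146 and 0.0915. These values do not settle whether the numbers pair the samples. With the replicate block the median of the members was -0.10, and 3 members had an unadjusted p under 0.05.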
